A study of Mus musculus with 11 samples.

Results

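The 9 genes described here are the Id family members Id1, Id2 and Id3, the feedback genes Smad6, Smad7 and Skil, and the receptor genes Tgfbr1, Tgfbr2 and Bmpr1a of the transforming growth factor beta (TGF-beta) and bone morphogenetic protein (BMP) pathways. They were chosen by symbol, as 9 of the 55291 gene symbols in the count table, and all 9 were among the 17183 genes that passed the filter on low counts. RNA-seq was made from LSK cells of mouse bone marrow, that is, cells negative for lineage markers and positive for cKit and Sca-1, a gate enriched for haematopoietic stem cells and their earliest progeny. Per the labels, each of the 11 libraries came from total RNA of 1 C57BL/6 mouse. Mice labelled Phf6R274X Tg (Tg, n = 4) and mice labelled as Phf6 knockout (KO, n = 3) were compared with wild-type mice (WT, n = 4). Phf6 encodes a plant homeodomain protein of chromatin, and R274X is a stop codon in it. The promoter of the transgene, the way the knockout was made, and the age, sex and batch of the mice are not stated in the labels.

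TGF-beta and BMP ligands bring together type I and type II receptor kinases, which phosphorylate SMAD proteins that carry the signal to the nucleus. BMP signalling induces the Id genes, whose proteins lack a DNA-binding region and hold E proteins and other basic helix-loop-helix factors away from DNA. Both pathways also induce their own inhibitors, among them Smad6, Smad7 and Skil, and in haematopoietic stem cells TGF-beta is best known for holding cells out of cycle.

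The libraries were checked before the genes were compared. Phf6 stood at 182.6 to 277.7 CPM (read counts per library total, corrected with edgeR's TMM factors) in Tg, at 15.35 to 23.96 CPM in KO and at 109.9 to 141.9 CPM in WT, and counts per gene do not separate a transgenic from an endogenous transcript. Library totals ran from 20990446 to 45632018 counts, so a floor of 3 counts corresponded to 0.0656 to 0.144 CPM, which covers counting error only. All 11 markers of stem cells and multipotent progenitors were detected in each group, with summed levels of 2598 to 3017 CPM in Tg, 2601 to 2822 CPM in KO and 2390 to 3382 CPM in WT. Macrophage markers (8 of 8 detected in each group) summed to 19.43 to 118.6 CPM in Tg, 30.06 to 127.4 CPM in KO and 32.36 to 213 CPM in WT, and erythroid and megakaryocyte markers (8 of 8) to 22.9 to 33.21 CPM in Tg, 24.65 to 43.41 CPM in KO and 26.75 to 67.73 CPM in WT. These sums hide falls of single markers in Tg against WT: by edgeR, Cd5l (log2 fold change -4.42, adjusted p = 0.0165), Spic (-1.84, adjusted p = 0.00940) and Mrc1 (-2.62, adjusted p = 0.0361) were called lower among 8 macrophage markers, 7 of which were below 0, while Vcam1, the most abundant, was at 0.08. Hbb-bt (-1.81, adjusted p = 0.0233) and Alas2 (-2.48, adjusted p = 0.0331) were called lower among the erythroid markers. Xist, which is expressed from the inactive X chromosome of females, was at 0.0307 to 0.324 CPM in Tg, at 32.57 to 41.1 CPM in KO and at 48.8 to 54.17 CPM in WT. The summed level of the Y-linked genes Ddx3y, Uty, Kdm5d and Eif2s3y was 54.31 to 368 CPM in Tg, 0.0335 to 113.9 CPM in KO and 0.0634 to 134.1 CPM in WT. Differences of Tg from KO or WT and differences that follow Xist therefore cannot be told apart. A total of 4 libraries, KO replicate 1 and WT replicates 1, 2 and 4, held at least 10 CPM of both, which RNA of a single male or female mouse would not be expected to hold. Whether they contain RNA of more than 1 mouse was not tested, and if they do, their levels are mixtures and n counts libraries, not mice. Each call of the 9 genes is given also without them. Beside a lower level of any transcript, fewer cells of a type and less RNA per cell cannot be told apart in bulk samples.

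Of the 9 genes, Id1 was higher and Tgfbr2 lower in the Tg libraries, and none passed the test between KO and WT. A gene was called at an adjusted p under 0.05 in edgeR's quasi-likelihood test, adjusted over all genes tested. In Tg against WT, 2 of the 9 genes were called, beside 4.92% of all genes tested (2.54% of all genes higher and 2.39% lower). In Tg against KO, Id1 and Tgfbr2 were again called in the same directions, beside 5.69% of all genes (2.63% of all genes higher and 3.06% lower). The contrasts share the Tg libraries. In KO against WT, 0 of the 9 genes were called by edgeR, beside 0.0233% of all genes, and 0 by DESeq2 or limma-voom. An unadjusted p under 0.05 was reached by 5 of the 9 genes in Tg against WT (22.1% of all genes), by 4 in Tg against KO (21.7%) and by 0 in KO against WT (7.09%). Groups did not overlap for 3 of the 9 genes in Tg against WT (Id1, Smad6 and Tgfbr2), beside 9.85% of all genes, for 2 in Tg against KO (Id1 and Tgfbr2), beside 20.8%, and for 0 in KO against WT, beside 7.5%. The median log2 fold change of the 9 genes was 0.049 in Tg against WT, 0.03 in Tg against KO and 0.094 in KO against WT, where the medians over all genes tested were 0.005 for Tg against WT, 0.013 for Tg against KO and -0.005 for KO against WT.

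**Figure D1:**
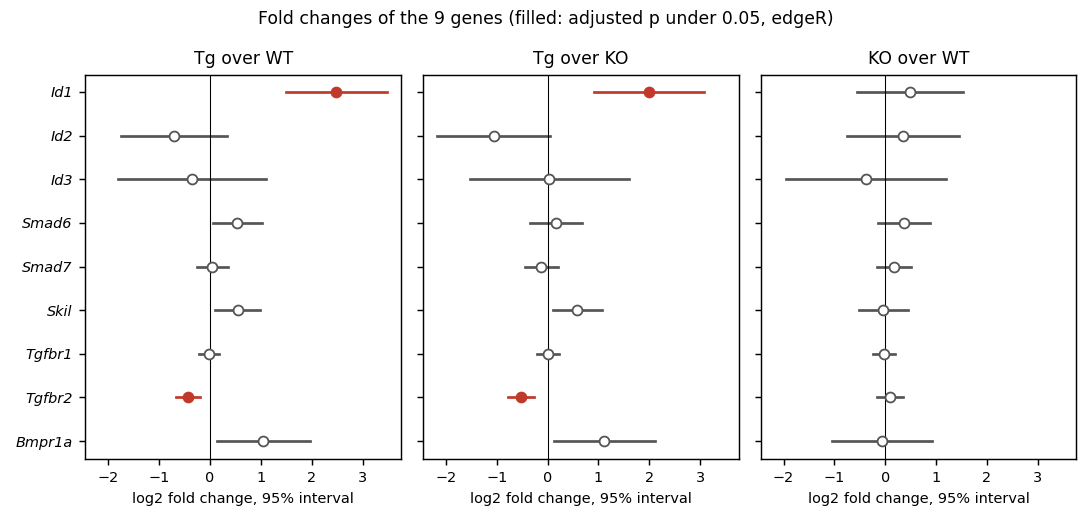
Log2 fold change of each of the 9 genes (x axis) with its 95% interval from the edgeR fit, for Tg against WT, Tg against KO and KO against WT; filled points passed the adjusted threshold of 0.05. Id1 at 2.48 and 2.00 and Tgfbr2 at -0.43 and -0.53 are the filled points of the Tg contrasts, and KO against WT has none.

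Among the Id genes, Id1 was higher in Tg than in both other groups. It held 11.5, 25.2, 7.81 and 12.8 CPM in Tg replicates 1 to 4, against 3.80, 2.52 and 4.46 CPM in KO replicates 1 to 3 and 2.10, 1.38, 1.84 and 5.08 CPM in WT replicates 1 to 4. Every Tg library lay above every KO and WT library, and Tg replicate 2 and WT replicate 4 were the highest of their groups. The counts behind these levels were 238 to 936 in Tg, 84 to 174 in KO and 45 to 106 in WT. The means were 14.4 ± 7.57 CPM in Tg (SD, n = 4), 3.60 ± 0.985 CPM in KO (n = 3) and 2.60 ± 1.68 CPM in WT (n = 4). Relative to WT, Id1 in Tg rose by 2.48 on the log2 scale (SE 0.45, 95% interval 1.49 to 3.48, edgeR quasi-likelihood test with Benjamini-Hochberg adjustment over all genes tested, adjusted p = 0.0160), which is 5.59-fold. It also rose in Tg against KO, by 2.00 (SE 0.49, adjusted p = 0.0395). The difference between KO and WT was 0.49 (SE 0.47, 95% interval -0.55 to 1.52, adjusted p = 0.867) and did not pass the test.

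The direction of the Id1 difference was the same with each library left out in turn, and the call depended on single libraries. Against WT, the lowest log2 fold change was 2.06, with Tg replicate 2 left out, and the highest 3.01, with WT replicate 4 left out, and the call was lost without WT replicate 1 (2.39, adjusted p = 0.05 after rounding). Against KO it lay between 1.58 and 2.20, and the call was lost without Tg replicates 1, 2 or 4 or any 1 KO library (adjusted p up to 0.151). Without the 4 libraries that held both Xist and Y-linked reads, Id1 was 2.96 higher on the log2 scale in Tg than in the 1 remaining WT library (adjusted p = 0.263, the lone library being assumed to vary like the other groups) and 2.03 higher than in KO (adjusted p = 0.0902). With the Y-linked level as a covariate the log2 fold changes were 2.61 against WT (adjusted p = 0.0183) and 2.22 against KO (adjusted p = 0.0795).

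The summed level of granulocyte-monocyte progenitor markers was higher in every Tg library than in every WT library, and 1 Tg library fell within the range of KO. By edgeR, 7 of the 8 markers were called higher in Tg against WT, and Gfi1 was not (log2 fold change 0.72, adjusted p = 0.0698), with 33.6 CPM in Tg replicate 3 against 41.1 CPM in WT replicate 4. All 8 markers of that list were detected in every group, and their summed level was 4872 to 24160 CPM in Tg, 3799 to 4924 CPM in KO and 1410 to 3563 CPM in WT. Tg replicates 1 to 4 held 24160, 21800, 4872 and 9717 CPM of these markers, with Id1 at 11.5, 25.2, 7.81 and 12.8 CPM. Replicate 3 was the lowest of Tg in both, while the highest marker sum was in replicate 1 and the highest Id1 in replicate 2. KO replicates 1 to 3 held marker sums of 4173, 3799 and 4924 CPM, with Id1 at 3.80, 2.52 and 4.46 CPM. WT replicates 1 to 4 held 1938, 1410, 2696 and 3563 CPM, with Id1 at 2.10, 1.38, 1.84 and 5.08 CPM. Marker sum and Id1 had the same order in KO, and WT replicates 2 and 4 were lowest and highest in both. Markers of T, NK and innate lymphoid cells, all 9 of which were detected in every group, summed to 141.9 to 269 CPM in Tg, 99.84 to 115.6 CPM in KO and 94.23 to 121.8 CPM in WT. Cd3e was at 0 counts in Tg replicate 4 and in WT replicates 3 and 4, and Cd3g in Tg replicate 4 and WT replicate 3. Nkg7 alone gave 109.9 to 247.6 CPM of that sum in Tg, 64.8 to 76.8 CPM in KO and 52.1 to 88.8 CPM in WT. Nkg7 was called higher in Tg against WT (log2 fold change 1.36, adjusted p = 0.0141), while Ncr1 (-4.43, adjusted p = 0.0101), Klrb1c (-1.57, adjusted p = 0.0476) and Il1rl1 (-0.79, adjusted p = 0.0291) were called lower by edgeR. Cd3e, Cd3g, Eomes and Tbx21 were below 0 and Gata3 above 0 without passing the test. The part of these cells in the Id1 difference was not tested.

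Id2 encodes the Id protein required for NK and innate lymphoid cells. It held 3.68, 5.66, 4.04 and 12.4 CPM in Tg, against 10.1, 16.1 and 14.1 CPM in KO and 8.36, 20.6, 4.38 and 8.72 CPM in WT. Tg replicate 4 stood above the other Tg libraries and WT replicate 2 above the other WT libraries, and all 3 groups overlapped. The log2 fold changes were -0.71 for Tg against WT (SE 0.47, adjusted p = 0.424 by edgeR), -1.06 for Tg against KO (SE 0.51, adjusted p = 0.250) and 0.35 for KO against WT (SE 0.50, adjusted p = 0.916), and none passed the test. Of the exonic 31-base words of Id2, 1.6% are shared with the predicted gene Gm6175, so a small part of its counts is uncertain.

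Id3, an Id gene induced in lymphoid cells by antigen receptor signalling as well as by BMP and TGF-beta, had the largest SD relative to its mean of the 3 Id genes in each group. It held 2.35, 5.72, 4.92 and 22.7 CPM in Tg, against 12.7, 4.89 and 8.48 CPM in KO and 6.10, 21.7, 4.89 and 12.9 CPM in WT. Tg replicate 4 and WT replicate 2 were far above the lowest libraries of their own groups, and the groups overlapped throughout. The log2 fold change was -0.35 for Tg against WT (SE 0.66, adjusted p = 0.806 by edgeR), 0.03 for Tg against KO (SE 0.71, adjusted p = 0.989) and -0.38 for KO against WT (SE 0.72, adjusted p = 0.942). The signs for Id3 turned with a single library left out, as given with the other settings in the closing section. The summed level of 7 B and plasma cell markers was 197.2 to 274.1 CPM in Tg, 1339 to 6175 CPM in KO and 335.8 to 4873 CPM in WT, with Ms4a1 at 0 counts in Tg replicates 1, 2 and 3, and its part in the spread of Id3 was not tested.

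**Figure D2:**
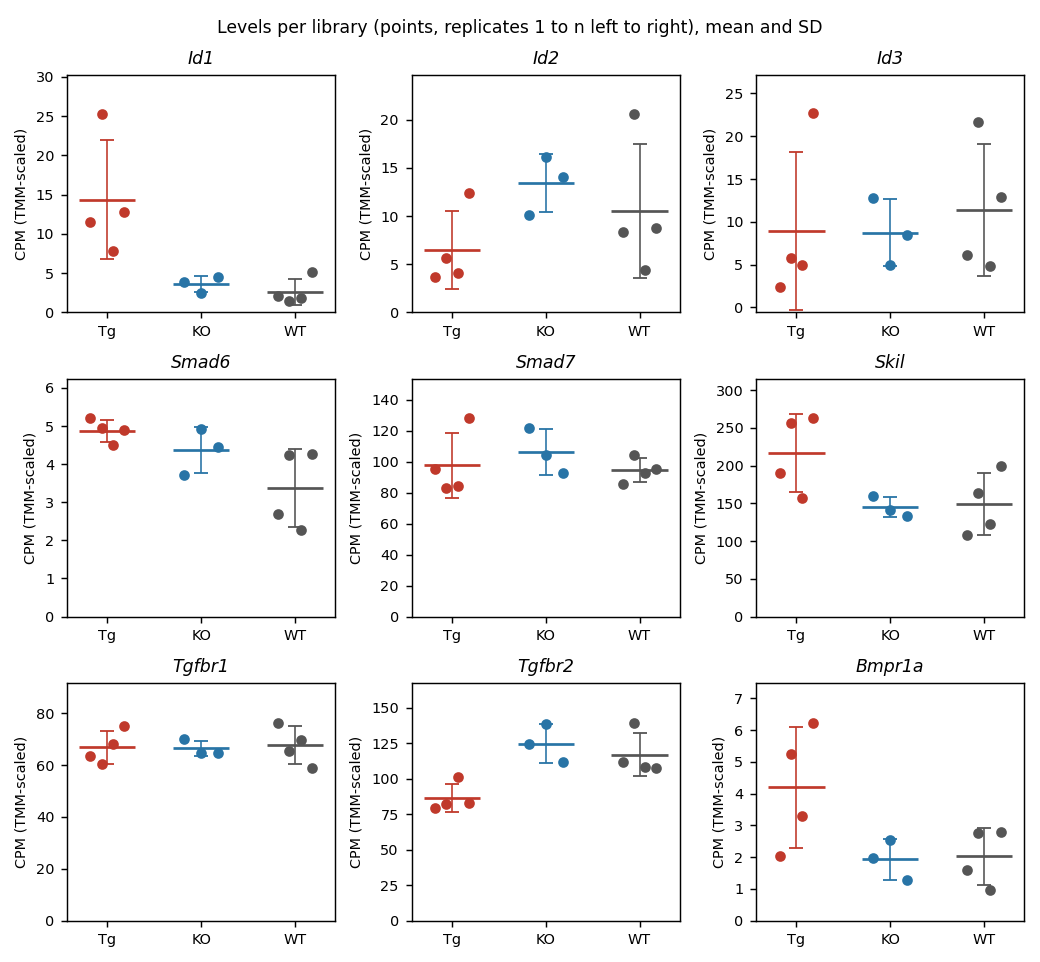
Level of each of the 9 genes in every library (y axis, TMM-scaled CPM), with Tg left, KO in the middle and WT right; points are libraries, horizontal lines group means and bars the SD. The Id1 panel shows all 4 Tg libraries at 7.81 to 25.2 CPM, above all KO and WT libraries, and the Tgfbr2 panel shows them at 79.6 to 101 CPM, below all KO and WT libraries.

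The makeup of the Id transcripts was set on a scale per length, in CPM per kilobase of exon, so that the 3 genes could be added. Id1 made up 77.9%, 79.8%, 60.5% and 38.4% of the summed Id level in Tg, against 22.5%, 18.9% and 26.8% in KO and 20.9%, 5.49%, 26.0% and 28.9% in WT. All Tg libraries exceeded all others in this share, and Tg replicate 4, which had the highest Id2 and Id3 of its group, had the lowest Id1 share of the 4. The mean share of Id2 was 13.2% in Tg, 42.0% in KO and 32.9% in WT. The mean share of Id3 was 22.7% in Tg, 35.2% in KO and 46.8% in WT. These shares are a description with no test.

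**Figure D3:**
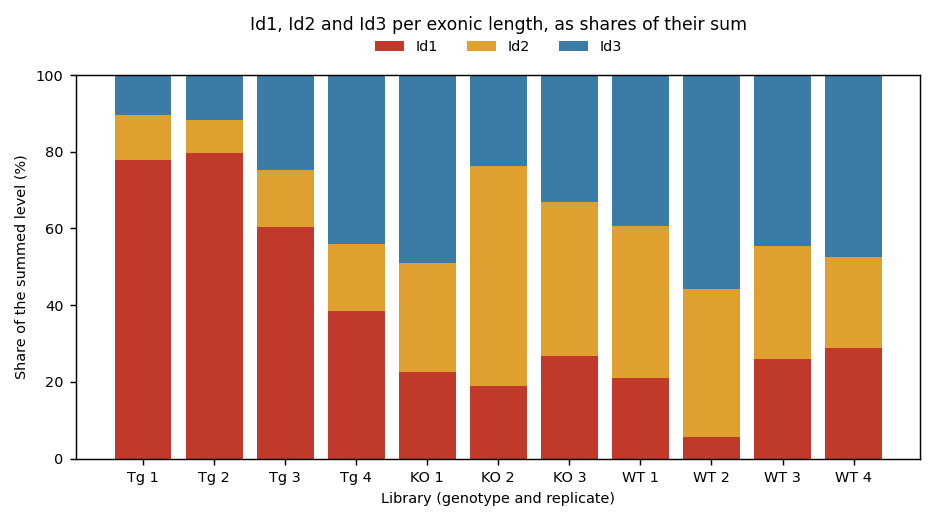
Share of the summed Id level (y axis, percent of CPM per kilobase of exon over Id1, Id2 and Id3) held by each gene in each library (x axis, Tg left, then KO, then WT); each bar stacks to the whole. Id1 holds 38.4% to 79.8% in the Tg libraries, 18.9% to 26.8% in the KO libraries and 5.49% to 28.9% in the WT libraries.

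Smad6 encodes an inhibitory SMAD that acts mainly on BMP receptors. It held 5.20, 4.94, 4.50 and 4.89 CPM in Tg, against 3.72, 4.92 and 4.46 CPM in KO and 2.70, 4.24, 2.28 and 4.27 CPM in WT. The Tg libraries lay close together and above all WT libraries, and they overlapped with KO. The log2 fold change of 0.54 in Tg against WT (SE 0.22, unadjusted p = 0.0323) did not pass the test after adjustment (adjusted p = 0.182 by edgeR). It was 0.16 for Tg against KO (adjusted p = 0.759) and 0.37 for KO against WT (SE 0.24, adjusted p = 0.786).

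Smad7 encodes the inhibitory SMAD that blocks TGF-beta type I receptors and recruits ubiquitin ligases to them. It held 95.6, 82.8, 84.2 and 128 CPM in Tg, against 121.7, 104.2 and 92.4 CPM in KO and 85.4, 104.1, 92.4 and 95.4 CPM in WT. The groups overlapped, with Tg replicate 4 the highest of all libraries and Tg replicate 2 the lowest. The log2 fold changes were 0.05 for Tg against WT (SE 0.14, adjusted p = 0.875 by edgeR), -0.12 for Tg against KO (adjusted p = 0.708) and 0.17 for KO against WT (SE 0.15, adjusted p = 0.848).

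Skil encodes SnoN, a nuclear repressor of SMAD-dependent transcription that TGF-beta both degrades and induces. It held 190.4, 256.8, 157.5 and 262.6 CPM in Tg, against 159.6, 141.6 and 133.5 CPM in KO and 108.6, 164.1, 122.9 and 199.6 CPM in WT. Tg replicates 2 and 4 were the highest of the 11 libraries, while Tg replicate 3 fell below 1 KO library and 2 WT libraries. The log2 fold change was 0.54 for Tg against WT (SE 0.20, unadjusted p = 0.0208, adjusted p = 0.144 by edgeR) and 0.58 for Tg against KO (SE 0.22, unadjusted p = 0.0229, adjusted p = 0.151), and neither passed the test after adjustment. It was -0.04 for KO against WT (SE 0.22, adjusted p = 0.987).

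Of the receptor genes, Tgfbr2 was lower in Tg and Tgfbr1, its partner on the same ligand, did not pass the test. Promoters were read from RefSeq for 6 of the 9 genes. The windows of these 2 receptor genes are shown because their products form 1 receptor complex and 1 of the 2 genes was called. Each is the 250 bases before the RefSeq start on the coding strand (GRCm38.p6), Tgfbr1 at chr4:47352972-47353221 on the plus strand and Tgfbr2 at chr9:116175364-116175613 on the minus strand. Capitals mark GGCGCC, a GC-rich element bound by BMP SMADs, and CAGAC, a SMAD-binding box, both searched on both strands, and the 2 motifs do not overlap there.
Tgfbr1: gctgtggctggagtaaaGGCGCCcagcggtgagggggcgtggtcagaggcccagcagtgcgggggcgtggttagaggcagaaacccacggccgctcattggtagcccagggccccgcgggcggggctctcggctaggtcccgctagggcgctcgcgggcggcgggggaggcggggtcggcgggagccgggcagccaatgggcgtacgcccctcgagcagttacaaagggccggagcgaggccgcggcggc
Tgfbr2: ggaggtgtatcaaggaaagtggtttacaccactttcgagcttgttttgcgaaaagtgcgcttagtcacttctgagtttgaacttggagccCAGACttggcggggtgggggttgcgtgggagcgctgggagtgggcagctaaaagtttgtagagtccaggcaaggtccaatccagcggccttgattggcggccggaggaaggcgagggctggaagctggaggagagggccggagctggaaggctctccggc
RefSeq gives Tgfbr1 a second start as well, and the window printed is that of the start next to the annotated 5′ end of the gene. The printed Tgfbr1 window holds GGCGCC once, starting at -233, and no CAGAC, while the Tgfbr2 window holds CAGAC once, at -160, and no GGCGCC. The window of the other Tgfbr1 start, chr4:47385966-47386215, holds no GGCGCC and CAGAC once, at -203, as the Tgfbr2 window does. Of 32851 RefSeq promoter windows of the same length, 9.59% hold GGCGCC and 42.2% hold CAGAC. A match is a description of letters and not of binding. The GC content is 74.8% in the Tgfbr1 window and 58.4% in the Tgfbr2 window.

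Tgfbr2, the type II receptor kinase that binds TGF-beta, held 79.6, 82.2, 101.0 and 83.0 CPM in Tg, against 124.1, 138.4 and 111.6 CPM in KO and 111.6, 139.4, 108.5 and 107.5 CPM in WT. All Tg libraries lay below all KO and WT libraries. The highest Tg library, replicate 3, stood close to the lowest WT library. The means were 86.4 ± 9.83 CPM in Tg (SD, n = 4), 124.7 ± 13.4 CPM in KO (n = 3) and 116.8 ± 15.2 CPM in WT (n = 4). In Tg against WT, Tgfbr2 changed by a log2 fold of -0.43 (SE 0.11, 95% interval -0.68 to -0.19, adjusted p = 0.0468 by edgeR), which is 0.74 of the WT level. In Tg against KO it changed by -0.53 (SE 0.12, adjusted p = 0.0272). The KO libraries were 0.09 higher than WT on the log2 scale (SE 0.12, adjusted p = 0.901), which did not pass the test.

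The Tgfbr2 call in Tg against WT did not survive the removal of any 1 of 9 libraries, that is, all but Tg replicate 3 and WT replicate 3 (log2 fold change -0.52 to -0.34, adjusted p up to 0.139). The call in Tg against KO was lost without Tg replicates 1, 2 or 4 or KO replicates 1 or 2 (-0.61 to -0.45, adjusted p up to 0.126). Without the 4 libraries that held both Xist and Y-linked reads, the log2 fold changes were -0.32 against the 1 remaining WT library (adjusted p = 0.575) and -0.54 against KO (adjusted p = 0.0972). With the Y-linked level as a covariate both calls were kept, at -0.50 against WT (adjusted p = 0.0326) and -0.64 against KO (adjusted p = 0.0447). Tg libraries also held less of the B and plasma cell markers given above and more of the granulocyte-monocyte progenitor markers, and the part of such cells in the Tgfbr2 difference was not tested.

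**Figure D4:**
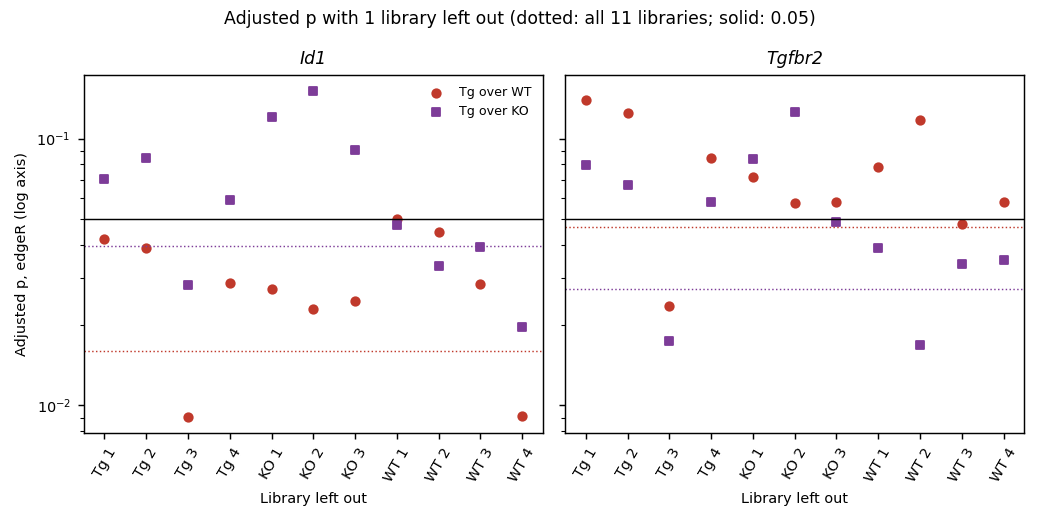
Adjusted p of Id1 (left) and Tgfbr2 (right) by edgeR (y axis, log scale) with 1 library left out (x axis), for Tg over WT (circles) and Tg over KO (squares); dotted lines show the values with all 11 libraries and the solid line the threshold of 0.05. For Tg over WT, 1 of 11 circles of Id1 and 9 of 11 of Tgfbr2 lie at or above the threshold.

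Tgfbr1, the type I receptor kinase that phosphorylates SMAD2 and SMAD3, had the narrowest spread of the 9 genes, 1.30-fold between the highest and lowest of the 11 libraries. It held 63.5, 60.6, 68.0 and 75.0 CPM in Tg, against 69.8, 64.8 and 64.6 CPM in KO and 76.3, 65.3, 69.6 and 58.9 CPM in WT. The groups overlapped fully. The log2 fold change was -0.02 for Tg against WT (SE 0.091, adjusted p = 0.936 by edgeR), with a 95% interval of -0.22 to 0.18, and it was 0.01 for Tg against KO (adjusted p = 0.979) and -0.02 for KO against WT (SE 0.098, adjusted p = 0.979).

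Bmpr1a, a type I receptor kinase for BMPs, was the lowest of the 9 genes per length. It held 2.03, 5.26, 3.28 and 6.24 CPM in Tg, against 1.97, 2.55 and 1.27 CPM in KO and 1.59, 2.77, 0.983 and 2.78 CPM in WT. Tg replicates 2, 3 and 4 exceeded every KO and WT library, and Tg replicate 1 lay among them. The log2 fold change was 1.05 for Tg against WT (SE 0.42, 95% interval 0.14 to 1.96, unadjusted p = 0.0273, adjusted p = 0.166 by edgeR) and 1.12 for Tg against KO (SE 0.46, unadjusted p = 0.0314, adjusted p = 0.179), and neither passed the test after adjustment. It was -0.06 for KO against WT (SE 0.45, adjusted p = 0.990). The antisense gene Gm17110 overlaps 290 exonic bases of Bmpr1a and held 31 counts over all libraries against 1021 for Bmpr1a. With the strand setting of the counting not given, reads of the overlap could belong to either gene.

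Levels were compared between genes as CPM per kilobase of exon. In Tg the order of the group means was Skil (22.4), Smad7 (21.6), Id1 (12.4), Tgfbr2 (10.6), Tgfbr1 (10.2), Id3 (4.98), Id2 (2.64), Smad6 (1.52) and Bmpr1a (0.662). In KO it was Smad7 (23.5), Tgfbr2 (15.2), Skil (14.9), Tgfbr1 (10.2), Id2 (5.51), Id3 (4.86), Id1 (3.10), Smad6 (1.36) and Bmpr1a (0.304), and in WT it was Smad7 (20.9), Skil (15.4), Tgfbr2 (14.3), Tgfbr1 (10.3), Id3 (6.36), Id2 (4.31), Id1 (2.24), Smad6 (1.05) and Bmpr1a (0.320). Id1 held the third place in Tg and the seventh in both KO and WT. Neighbours in the order whose library ranges did not overlap were Smad6 and Bmpr1a in all groups. In KO the ranges were also apart between Smad7 and Tgfbr2, Skil and Tgfbr1, Tgfbr1 and Id2, and Id1 and Smad6. In WT the other such pair was Tgfbr2 and Tgfbr1, and all remaining neighbours overlapped. On the CPM scale, the highest of the 11 libraries exceeded the lowest 18.3-fold for Id1, 9.65-fold for Id3, 6.34-fold for Bmpr1a, 5.60-fold for Id2, 2.42-fold for Skil, 2.28-fold for Smad6, 1.75-fold for Tgfbr2 and 1.55-fold for Smad7.

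In GRCm38 coordinates of GENCODE M21, Id1 is on chromosome 2 (152736251 to 152737410, plus strand) and Id2 on chromosome 12 (25093799 to 25097140, minus strand). Id3 (136143497 to 136145755) and Tgfbr1 (47353222 to 47414931) are both on the plus strand of chromosome 4. Smad6 (63953076 to 64022059) and Tgfbr2 (116084293 to 116175360) are both on the minus strand of chromosome 9. Skil is on chromosome 3 (31095058 to 31122577, plus strand) and Bmpr1a on chromosome 14 (34410734 to 34503341, minus strand). The counts cover whole exons, and no exonic 31-base word is shared between any 2 of the 9 genes. With other genes, Bmpr1a shares 4.08% of its words, Id2 1.6%, Tgfbr2 1.59% (0.723% with Gm43597) and Tgfbr1 0.567%. A small part of the counts of these genes is therefore uncertain.

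Around these genes, 100 other genes of the pathways were listed by role, and 75 of them passed the filter on low counts. In Tg against WT, 5 of the 75 passed the test, 3 higher and 2 lower (6.67%, beside 4.92% of all genes), and the median log2 fold change was -0.028. In Tg against KO, 6 passed, 3 higher and 3 lower (8%, beside 5.69% of all genes), and the median was -0.005. In KO against WT, 0 passed by edgeR, DESeq2 or limma-voom, 6 had an unadjusted p under 0.05 (8%, beside 7.09% of all genes), and the median was -0.034. Without the 4 libraries that held both Xist and Y-linked reads, which leaves 1 WT library, 0 of these genes were called in Tg against WT and 2 in Tg against KO.

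Among ligands and their activators, 2 of 17 tested genes rose in both Tg contrasts (11.8%). The shares of all genes called were 4.92% in Tg against WT and 5.69% in Tg against KO. DESeq2 called 3 of the 17 in each Tg contrast, and limma-voom called 2. Bmp4, a ligand of the receptor that Bmpr1a encodes, had 42, 38, 25 and 50 counts in Tg, against 1, 3 and 4 in KO and 7, 10, 7 and 5 in WT. Every Tg library exceeded all others. The KO counts were below, at or just above the floor of 3 counts, and the WT counts, at 5 to 10, were also low. Its log2 fold change was 2.14 against WT (SE 0.42, adjusted p = 0.0195 by edgeR) and 3.78 against KO (SE 0.53, adjusted p = 0.00322), where no library left out removed the call. Against WT the call was lost without Tg replicate 1 or WT replicate 1 (adjusted p up to 0.0555). Bmp1, a metalloprotease that cleaves BMP antagonists and procollagens, was also higher in Tg, with a log2 fold change of 0.42 against WT (SE 0.11, adjusted p = 0.0483) and 0.67 against KO (SE 0.12, adjusted p = 0.0104). Leaving out any 1 of 10 libraries ended its call against WT (highest adjusted p = 0.139, with Tg replicate 2 left out), and its call against KO was kept in each case. With the Y-linked level as a covariate, the Bmp1 call against WT was lost and that against KO was kept.

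Of the 3 antagonists tested, 0 were called in any contrast by edgeR, where 0 had an unadjusted p under 0.05, and 0 by DESeq2 or limma-voom. Of the 10 other receptors, 0 were called by edgeR, with an unadjusted p under 0.05 for 2 in Tg against WT, 3 in Tg against KO and 2 in KO against WT, where the shares over all genes are 22.1%, 21.7% and 7.09% for these contrasts. DESeq2 called 1 of them, Rgmb, a BMP co-receptor, in Tg against KO, and limma-voom 0. Among the 3 antagonists, the lowest p in Tg against WT belonged to Fstl1, a secreted follistatin-like protein (log2 fold change -0.49, SE 0.28, adjusted p = 0.345 by edgeR). Among the 10 other receptors it belonged to Acvrl1, a type I receptor of endothelial cells (-1.51, SE 0.55, adjusted p = 0.139). Of the 5 signal-carrying SMADs tested, 0 were called by edgeR or limma-voom, with an unadjusted p under 0.05 for 2 in Tg against WT, 1 in Tg against KO and 0 in KO against WT. DESeq2 called Smad4 in both Tg contrasts. Smad4, the SMAD shared by both pathways, had an edgeR log2 fold change of -0.30 in Tg against WT (SE 0.080, adjusted p = 0.0588), and Smad5, a SMAD of the BMP branch, at -0.23 (SE 0.10, adjusted p = 0.216).

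Of 17 other intracellular regulators, 1 fell in Tg against WT (5.88%, beside 4.92% of all genes). In Tg against KO, 1 rose and 1 fell (11.8%, beside 5.69% of all genes). DESeq2 called 4 of the 17 in each Tg contrast. The limma-voom fit called 1 in Tg against WT and 2 in Tg against KO. The list holds inhibitors of signalling and also genes whose products promote it, such as the deubiquitinase genes Usp4, Usp11 and Usp15 and the SMAD anchor gene Zfyve9. Ctdsp2, a phosphatase that removes phosphate from SMADs, was lower in Tg than in WT by a log2 fold change of -0.31 (SE 0.067, adjusted p = 0.0269 by edgeR), and its call was lost without Tg replicates 1 or 2 or WT replicates 1 or 2 (adjusted p up to 0.0878). Ski, the corepressor related to the product of Skil, held 71.5, 81.5, 74.1 and 78.9 CPM in Tg, against 58.4, 54.8 and 57.6 CPM in KO and 66.6, 58.0, 57.1 and 70.4 CPM in WT. It was called in Tg against KO (log2 fold change 0.43, SE 0.087, adjusted p = 0.0190), and the call was lost without any 1 KO library (adjusted p up to 0.0943). Its difference from WT was 0.28 (SE 0.080, adjusted p = 0.0690). Usp11, whose product stabilises TGF-beta receptors, fell by 0.34 in Tg against KO (SE 0.072, adjusted p = 0.0230), and its call was lost without Tg replicate 2 or KO replicates 2 or 3 (adjusted p up to 0.126). The calls of Ski and Usp11 against KO were also lost with the Y-linked level as a covariate.

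Of 16 other target genes, 1 rose in Tg against WT (6.25%, beside 4.92% of all genes). In Tg against KO, 1 fell (6.25%, beside 5.69% of all genes). DESeq2 called 3 of the 16 in each of these contrasts, and limma-voom called 0. Both edgeR calls were also lost with the Y-linked level as a covariate. Fn1, which encodes the matrix protein fibronectin, was higher in Tg than in WT, with a log2 fold change of 1.15 (SE 0.28, adjusted p = 0.0404 by edgeR), a call that ended with any 1 of 9 libraries left out (highest adjusted p = 0.0996, with WT replicate 2 left out). Col1a1, a collagen gene of stromal cells, fell by 4.97 in Tg against KO (SE 1.25, adjusted p = 0.0419), and the group levels rest largely on KO replicate 3. The Tg libraries held 1, 9, 10 and 6 counts and the KO libraries 96, 21 and 467. Without KO replicate 3 the difference was -2.82 (adjusted p = 0.201). The call was lost for 6 of the 11 libraries left out. The 8 endothelial and stromal markers, which include Col1a1, summed to 19.74 to 22.37 CPM in Tg, 18.67 to 33.79 CPM in KO and 23.82 to 38.09 CPM in WT. Much of this sum was Emcn, with means of 13.15 CPM in Tg, 11.15 CPM in KO and 13.98 CPM in WT. All 8 markers were below 0 in Tg against WT, and Stab2 was called lower (log2 fold change -3.75, adjusted p = 0.0111 by edgeR).

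Of 7 tested genes of E proteins and other basic helix-loop-helix factors, Tcf4 fell in both Tg contrasts (14.3%). The shares of all genes called were 4.92% in Tg against WT and 5.69% in Tg against KO. DESeq2 called 2 of the 7 in each Tg contrast, and limma-voom called 1, Tcf4. Tcf4, which encodes the E protein E2-2, held 191.8, 162.6, 231.7 and 202.5 CPM in Tg, against 285.2, 289.9 and 260.8 CPM in KO and 314.7, 326.4, 254.4 and 265.2 CPM in WT. All Tg libraries lay below all others. The log2 fold change was -0.56 against WT (SE 0.11, adjusted p = 0.0233 by edgeR) and -0.50 against KO (SE 0.12, adjusted p = 0.0396). The call against WT was lost without Tg replicates 1 or 2 or WT replicates 1 or 2 (adjusted p up to 0.0758), and the call against KO was lost for 7 of the 11 libraries left out (adjusted p up to 0.139).

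**Figure D5:**
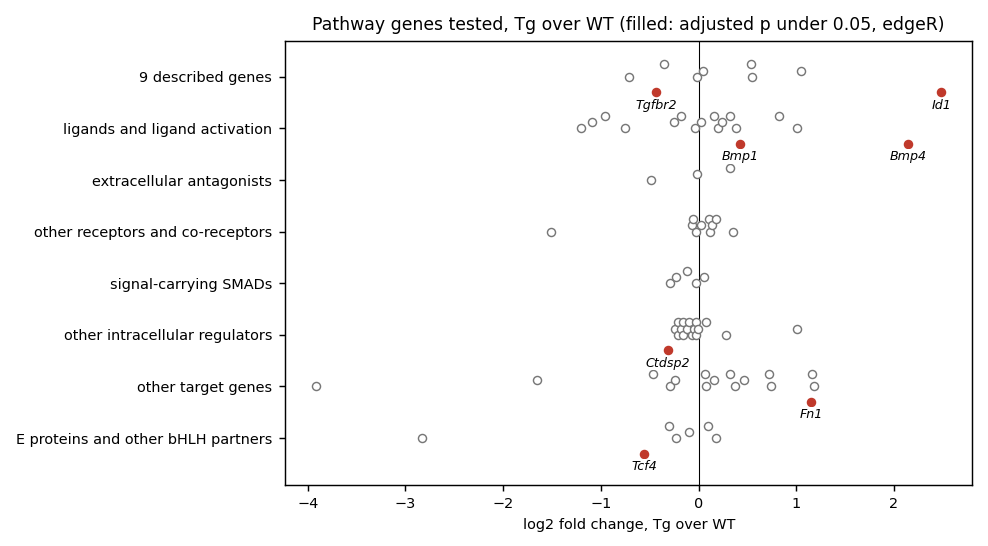
Log2 fold change, Tg over WT (x axis), of the 9 genes and of the tested genes of the 7 pathway lists (rows, each point 1 gene); filled points passed the adjusted threshold of 0.05 by edgeR and are named. The 5 filled points of the lists are Bmp4 at 2.14, Fn1 at 1.15, Bmp1 at 0.42, Ctdsp2 at -0.31 and Tcf4 at -0.56.

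The genes most alike in pattern were found by the root-mean-square difference of log2 CPM, each centred on its gene's mean over the 11 libraries. Closest to Id1 were Scnn1a, an epithelial sodium channel subunit (0.294 log2 units), Gpc1, a glypican (0.344), and Cebpe, a granulocyte transcription factor (0.452). Id1 itself had an SD of 1.24, and Cebpe is also among the granulocyte-monocyte progenitor markers given above. Closest to Id2 (SD 0.805) were Gsn, which encodes gelsolin (0.292), St3gal5, a sialyltransferase (0.329), and Sdc3, a syndecan (0.37). Closest to Id3 (SD 0.957) were the kinase genes Sgk1 (0.376) and Prkcb (0.401) and Cd38, an ectoenzyme of leukocytes (0.462). The single closest gene was Dclre1a for Smad6 (0.172), Gadd45a for Skil (0.133), Zkscan1 for Tgfbr1 (0.0454), Hdac7 for Tgfbr2 (0.0604) and Plk3 for Bmpr1a (0.437). The libraries of all these genes are the same, so shared differences between libraries enter every such distance.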

How the data were processed

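LSK cells were sequenced as paired reads in 11 libraries, 1 per mouse, per the labels. The authors deposited 1 table of unnormalised read counts by gene symbol. FastQC, Trimmomatic, STAR, HTSeq and the build mm10 are named, per the submitters' processing notes; versions, annotation and strand setting are not given in the sources used. Each library was placed by the title and genotype in its labels.

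A single model of all libraries was fitted in edgeR 4.0.16 (R 4.3.3; TMM factors, filterByExpr on group, quasi-likelihood test), with no covariate. Calls were made at an adjusted p under 0.05 (Benjamini-Hochberg, over the 17183 genes tested). SE is the log2 fold change divided by the root of F. The p-values measure the spread between these libraries. The fit was tested on simulated data. Coordinates and exon lengths were those of GENCODE M21 on GRCm38, which is mm10's assembly, and promoters came from RefSeq (GRCm38.p6).

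The genes and pathway lists were chosen with earlier results of these data known. The genes named were all 9, the called pathway genes (up to 4 a list and contrast; up to 2 of lowest p where none was called) and the most similar patterns among genes averaging 5 CPM or more (log2 CPM with a prior count of 2); 1 gene that this rule names is not reported here. Alternatives were DESeq2 1.42.0, limma-voom (limma 3.58.1), other scaling factors, no filter, a filter of 2 CPM in 3 libraries, 2-group fits, a block for replicate number, the Y-linked level as a covariate (pseudocount 0.5 CPM) and each library left out. Leaving out the libraries that held both Xist and Y-linked reads was chosen after seeing the data. Plots used matplotlib 3.10.9 (Python 3.11.15).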

Additional observations from a re-analysis of the deposited data

Results flagged for a closer look

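A sample stood far from the others of its group in 3 of 18 groups of 4 libraries checked, where chance alone gives about 1 in 20. Id3 in Tg replicate 4 stood at 22.7 CPM, with a gap to its nearest neighbour of 0.834 of the group's range, just above the critical value. Tgfbr2 in Tg replicate 3 stood at 101 CPM (gap 0.841 of the range), and Tgfbr2 in WT replicate 2 at 139 CPM (gap 0.872). The Tgfbr2 difference of Tg from WT was -0.52 on the log2 scale with Tg replicate 3 left out and -0.34 with WT replicate 2 left out.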

How the results depend on the processing

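The counts of called genes moved with the processing, and the cause was not tested. In Tg against WT, 846 genes, 2 of the 9 and 5 pathway genes were called. DESeq2 called 1912 genes and 13 pathway genes. The fit of the 2 groups called 358, 1 and 1 of them, the replicate block 221, 1 and 0, and leaving out the libraries that held both Xist and Y-linked reads, chosen after seeing the data, 20, 0 and 0. The Y-linked covariate called 1342 genes, and 1 of the 9 was called with limma-voom, DESeq2's size factors or the stricter filter. In Tg against KO, 978 genes, 2 of the 9 and 6 pathway genes were called. DESeq2 called 1922 genes and 14 pathway genes, the replicate block 303, 0 and 1, the Y-linked covariate 465, 1 and 3, and leaving out the libraries with both reads 364, 0 and 2. In KO against WT, 4 genes were called, against 99 by DESeq2, 1 with limma-voom, the 2 groups or the replicate block, and 2 with the Y-linked covariate. With 1 library left out, the counts ran from 211 to 1076 genes, 0 to 2 of the 9 and 0 to 9 pathway genes in Tg against WT. They ran from 287 to 1096, 0 to 2 and 2 to 9 in Tg against KO, and from 1 to 4 genes in KO against WT.

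The Tgfbr2 call in Tg against WT was lost with limma-voom (adjusted p = 0.0507), other size factors (0.0506), the stricter filter (0.0517), the 2 groups alone (0.0777) and the replicate block (-0.43, 0.101), and kept by DESeq2 (0.00681). Under the replicate block Id1 was 2.57 higher (adjusted p = 0.0459) in Tg than in WT, and in Tg against KO Id1 and Tgfbr2 lost their calls (1.77, adjusted p = 0.126, and -0.50, adjusted p = 0.0876). Correlations of same-numbered libraries ran from -0.314 to 0.174. Libraries of unlike number were not compared in this way, so whether the numbers pair the mice was not tested.

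Signs turned only for differences that did not pass the test. For KO against WT, Id3 was 0.231 with the replicate block, 0.047 with the Y-linked covariate and 0.465 without the libraries with both reads; Skil was 0.005 with limma-voom, 0.133 with the block and 0.178 without those libraries. Tgfbr1 was 0.002 with the Y-linked covariate, and Bmpr1a was 0.05 with limma-voom, 0.201 with the block, 0.146 with the Y-linked covariate and 0.978 without those libraries. For Tg against WT, Smad7 was -0.051 with the Y-linked covariate, and Id2 and Id3 were 0.564 and 0.879 without the libraries with both reads. For Tg against KO, Id3 was -0.481 with limma-voom, -0.91 with the block and -0.89 with the Y-linked covariate, and Tgfbr1 was 0 with limma-voom after rounding and -0.062 with the Y-linked covariate. With 1 library left out, KO against WT ran from -0.766 to 0.137 for Id3, -0.174 to 0.135 for Skil, -0.085 to 0.03 for Tgfbr1 and -0.311 to 0.145 for Bmpr1a. Tg against WT ran from -1.396 to 0.18 for Id3, -0.108 to 0.121 for Smad7 and -0.078 to 0.04 for Tgfbr1, and Tg against KO from -1.011 to 0.415 for Id3 and -0.052 to 0.052 for Tgfbr1. Bmpr1a rests on the fewest counts of the 9 genes, 1021 over all libraries. Between libraries of 1 group, the mean chi-square per gene was 28.53 to 94.02, over genes with at least 20 summed counts. Counting error alone would give far smaller values. For single genes, counting error was not separated from the spread between libraries.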
